A study of Mus musculus with 12 samples.

Results

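A set of 10 microRNAs (miRNAs), each known for a lineage foreign to breast epithelium, was followed across 4 mouse breast cancer cell lines. They are mmu-miR-142-3p, mmu-miR-142-5p, mmu-miR-150, mmu-miR-223 and mmu-miR-451 of blood cells, mmu-miR-126-3p of the vessel lining, mmu-miR-206, mmu-miR-1 and mmu-miR-133a of muscle, and mmu-miR-122 of the liver, written without the species prefix from here on. Members were taken by name from the array, where they are 10 of 577 miRNAs. The measurements are 12 one-colour Agilent mouse miRNA arrays, on which the brightness of a spot stands for the amount of the miRNA bound to it.

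The lines 67NR, 168FARN, 4TO7 and 4T1 had 3 arrays each. Per the labels all 4 trace to spontaneous breast cancer of female Balb/C mice, all are "wild type" in genotype, and none carries a treatment, transgene or stated time point. 4T1 is labelled metastatic and the other 3 lines non-metastatic, so each class of metastasis is represented by single lines and the metastatic class by 1. Each array received miRNA labelled from 100 ng of total RNA taken with Trizol. Nothing in the labels tells whether repeats came from separate cultures. A p-value here is therefore set against the scatter of repeats within lines, and that scatter may be technical. The fit pools it over the 4 lines and draws it towards that of all tested miRNAs.

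Animal miRNAs are short RNAs cut from a hairpin, and either arm of the hairpin can become the mature strand. The mature strand guides a silencing complex to messenger RNAs, mainly through its seed near the 5′ end. Some miRNAs are made almost exclusively in 1 lineage and are used to recognise it. miR-142, miR-150 and miR-223 belong to white blood cells, and miR-451 to the red cell series. miR-126 is transcribed within Egfl7, an endothelial gene. miR-1, miR-133 and miR-206 are induced when myoblasts differentiate, and miR-122 makes up much of the miRNA of hepatocytes.

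The mature sequences of 6 members are given because the same probes and seeds recur below, together with that of miR-133b, which neighbours miR-206. They are RefSeq's, from build GRCm38.p6, written 5′ to 3′ with the seed, bases 2 to 8, in capitals. miR-150, miR-1, miR-133a and miR-122 are named only.
miR-142-3p: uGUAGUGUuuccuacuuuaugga
miR-142-5p: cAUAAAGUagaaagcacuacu
miR-223: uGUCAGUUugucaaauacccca
miR-451: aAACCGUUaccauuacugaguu
miR-126-3p: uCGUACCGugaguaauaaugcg
miR-206: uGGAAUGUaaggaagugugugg
miR-133b: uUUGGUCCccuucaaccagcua
The 7 printed seeds differ from one another. All 7 lie on the plus strand. RefSeq places miR-206 and miR-133b within the span of the non-coding RNA gene Lincmd1, miR-126-3p within that of Egfl7 and miR-223 within that of the non-coding RNA gene F630028O10Rik. Each member has 2 probes on the array, and the brighter stands for it unless the text says otherwise.

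A miRNA was counted as read on an array when the scanner software marked at least 50% of the usable spots of a probe as well above background. Of the 10 members, 67NR read 1 on all 3 arrays, 168FARN read 2, and 4TO7 and 4T1 each read 1. The shares were 10%, 20%, 10% and 10%, against 24.9%, 30.5%, 25.9% and 29.3% of the 567 other miRNAs on the array. 7 members (miR-142-5p, miR-150, miR-223, miR-451, miR-1, miR-133a and miR-122) were read on no array of any line, as were 316 of the 567 others (55.7%). The single vessel member, miR-126-3p, was read in 67NR, 4TO7 and 4T1 but not in 168FARN. The blood member miR-142-3p and the muscle member miR-206 were read in 168FARN and in no other line. The liver member was not read. In bulk RNA, a few cells rich in a miRNA and many cells with little of it cannot be told apart.

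**Figure D1:**
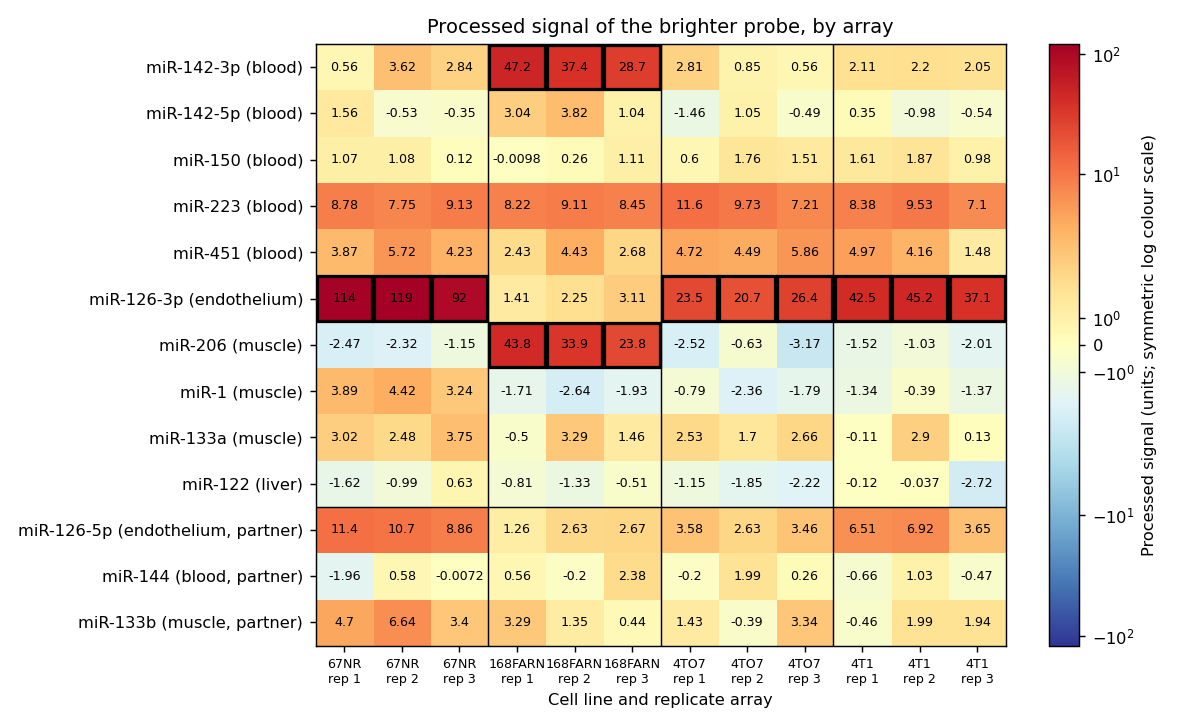
Processed signal (units) of the brighter probe of the 10 members, above the horizontal line, and of 3 partners, below it, on each of the 12 arrays; boxes mark arrays where that probe was well above background, and colours are meant to be compared along a row. Boxes fill the 67NR, 4TO7 and 4T1 columns of miR-126-3p and the 168FARN columns of miR-142-3p and miR-206, and no other row has one.

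The arrays differed in brightness. Among 171 probes above background everywhere, the 75th percentile ranged from 353 to 454 units in 67NR, from 768 to 1186 in 168FARN, from 599 to 669 in 4TO7 and from 884 to 1124 in 4T1, and each array was divided by its own value. The lowest signal that counted as read was alike throughout, at 12.6 to 16.6 units, so after scaling a miRNA had to be higher in 67NR to be read. Arrays of 1 line correlated at r = 0.993 to 1, 67NR with the other lines at 0.541 to 0.638, and the other lines with each other at 0.839 to 0.965 over the tested miRNAs. A control probe named hur_5 gave 180 to 207 units on the 67NR arrays and 1.25 to 6.36 elsewhere. Epithelial character was checked on 7 marker miRNAs (the miR-200 family with miR-141, and miR-203 and miR-205). None of the 7 was read on all arrays of any line, and miR-200c and miR-141 were each read on 1 of the 67NR arrays.

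miR-126-3p is the endothelial member, and its probe target lies at chr2:26446925-26446943 (mm9, per the array files). Its signal was 114, 119 and 92.0 units on the 67NR arrays. In 4T1 it was 42.5, 45.2 and 37.1 units, and in 4TO7 23.5, 20.7 and 26.4 units. On the 168FARN arrays the same probe gave 1.41, 2.25 and 3.11 units, within the background. The 4 lines therefore fell into 4 ranges of raw signal without overlap, 67NR at the top and 168FARN at the bottom. The second probe, whose target is 1 base shorter, gave the same order, with means of 83.6 ± 11.4 (SD, n = 3) in 67NR, 32.3 ± 3.21 in 4T1, 16.8 ± 2.24 in 4TO7 and 1.33 ± 0.14 in 168FARN. The signal of the brighter probe was 1.25 to 1.34 times that of the dimmer on the 67NR arrays, 1.23 to 1.34 times in 4T1 and 1.38 to 1.42 times in 4TO7.

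**Figure D2:**
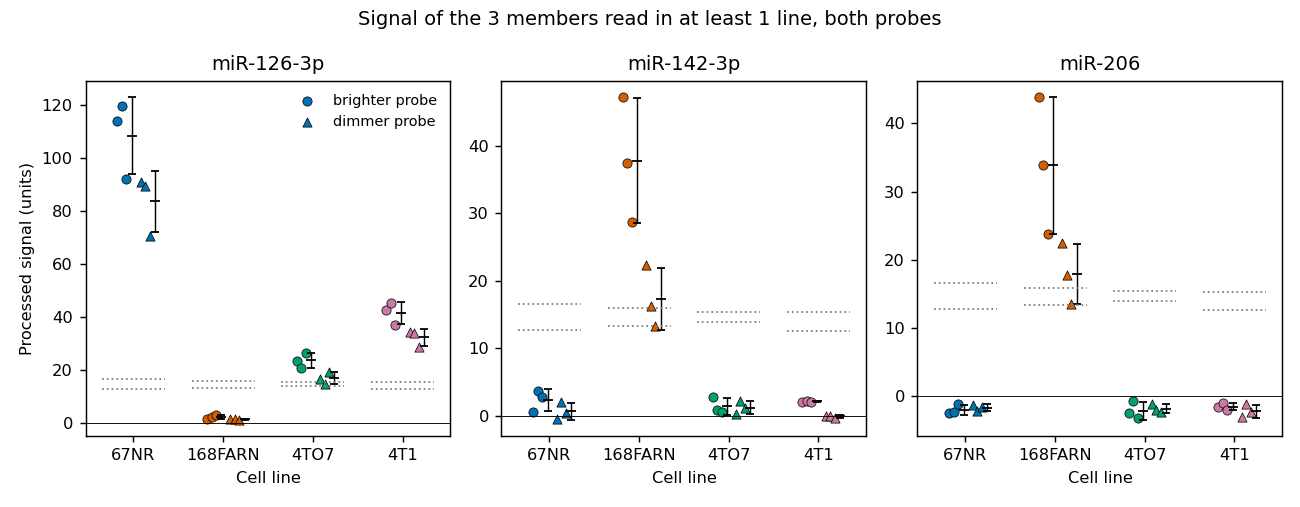
Processed signal (units) of the 3 members that were read in some line, by cell line; circles are arrays of the brighter probe, triangles of the dimmer, bars the mean ± SD of 3 arrays, and the dotted lines the lowest and highest of the lowest read signals of that line's arrays. miR-126-3p stands at 92.0 to 119 in 67NR and at 1.41 to 3.11 in 168FARN, while miR-142-3p and miR-206 rise above the dotted lines in 168FARN alone.

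After scaling, the level of miR-126-3p, as log2 of the scaled signal, was -1.94 ± 0.05 (SD, n = 3) in 67NR, -4.63 ± 0.05 in 4T1 and -4.74 ± 0.13 in 4TO7. In 168FARN it lay at the floor of -5.55, a fixed lower limit that replaced every lower scaled signal, whether read or not. The level in 4T1 was 6.44-fold lower than in 67NR (difference -2.69 ± 0.06, SE; limma adjusted p = 1.48e-12). In this comparison 79.6% of the 226 tested miRNAs were called and 81.4% had arrays that did not overlap between the lines, and the median absolute difference was 1.34. 4TO7 was 6.96-fold lower than 67NR (-2.80 ± 0.06, adjusted p = 9.04e-13), where 79.6% of all tested miRNAs were called and 80.1% did not overlap. 168FARN was at least 12.2-fold lower than 67NR (adjusted p = 9.17e-14), in a comparison with 87.2% called and 85.8% without overlap. The sizes depended on the processing, although every alternative kept the 3 calls. With normexp the differences from 67NR were -1.84 for 4T1, -1.50 for 4TO7 and -1.88 for 168FARN, and without scaling they were -1.38, -2.20 and -2.96. A doubled floor gave -2.61 for 168FARN, so the bound of 12.2-fold holds for the scaling, background and floor used here and not for these alternatives. "At least" marks a lower bound, in which the unread side is put at the lowest level its arrays could read or at the floor, whichever is higher.

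Below 67NR, the order of the lines was less certain. 168FARN was at least 1.76-fold lower than 4TO7 (adjusted p = 1.31e-07; 73.5% of tested miRNAs called, 73% without overlap) and at least 1.90-fold lower than 4T1 (adjusted p = 4.29e-08; 73.5% called, 76.5% without overlap). A doubled floor ended both calls, since all 3 lines then lay at it, and normexp ended that of 4T1 against 168FARN (0.04, adjusted p = 0.57). Between 4T1 and 4TO7 the scaled levels overlapped, and their difference of 0.11 ± 0.06 (95% interval -0.01 to 0.24) did not pass the test (adjusted p = 0.115), in a comparison where 61.1% of tested miRNAs did and 66.8% had arrays without overlap. This absence of a call depended on the scaling, the probe and the background correction. Without any scaling 4T1 was higher by 0.82 (adjusted p = 9.8e-05), with quantile scaling by 0.25 (0.00106), with the dimmer probe by 0.24 (0.00647), and with the mean of the probes by 0.17 (0.0294). The normexp background correction turned the difference to -0.33 (7.09e-05). Pairs of lines share the arrays of a line, so these comparisons are not independent of each other.

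**Figure D3:**
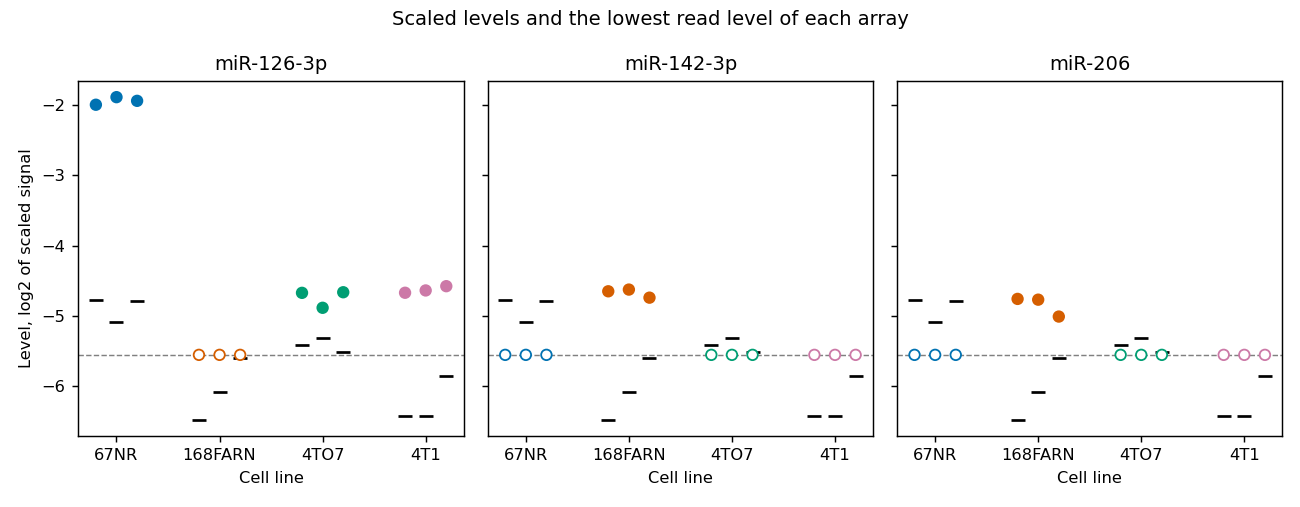
Level (log2 of the scaled signal) of the 3 members by cell line; filled circles are arrays on which the plotted probe was well above background, open circles arrays at the floor, short black lines the lowest level that could be read on each array, and the dashed line the floor of -5.55. The 67NR limits lie above those of the other lines and near the 168FARN levels of miR-142-3p (-4.67) and miR-206 (-4.85).

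miR-126-5p, from the other arm of the same hairpin, was read on no array. The line means of its brighter probe fell in its partner's order, although 4TO7 and 168FARN overlapped. It gave 11.4, 10.7 and 8.86 units in 67NR, 6.51, 6.92 and 3.65 in 4T1, 3.58, 2.63 and 3.46 in 4TO7, and 1.26, 2.63 and 2.67 in 168FARN. All 3 arrays of 67NR stood above the 9 others, which was so for 5.88% of the 323 miRNAs that were read nowhere. The same held in 168FARN for 4.33% of them, in 4TO7 for 0.929% and in 4T1 for 1.55%, none of these a member or a partner of one. The second probe of miR-126-5p did not show this order. Its means were 2.39 ± 0.59 in 67NR, 2.27 in 4TO7, 1.74 in 4T1 and 1.45 in 168FARN, and 67NR overlapped 4TO7.

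The other miRNAs known from vessels behaved in several ways. Of 8 on the array, miR-126-5p among them, 7 were tested. miR-221 and miR-222, miRNAs of 1 transcript that endothelial cells share with many tumours, were read in all 4 lines and stood highest in 67NR, at levels of 2.46 ± 0.14 and 0.08 ± 0.07. miR-10a, a regulator of endothelial inflammation, reached 0.69 ± 0.06 in 67NR and -3.02 ± 0.06 in 168FARN and was not read in 4TO7 or 4T1. miR-130a went the other way, unread in 67NR, with a mean signal of -0.38 units, and at mean signals of 2729, 1635 and 2997 units in 168FARN, 4TO7 and 4T1. miR-132, which activated endothelium makes, was read in 67NR (-3.96 ± 0.07) and in 4T1 (-2.74 ± 0.06) only. For 4T1 against 67NR, 5 of the 7 were lower and 2 higher with a median of -2.07, where 47.8% of all tested miRNAs were lower, 31.9% were higher and the median was -0.07.

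By Pearson correlation of the level over the 12 arrays, the tested miRNAs most like miR-126-3p were miR-19a (r = 0.9966), miR-18a* (0.9951) and miR-18a (0.9943). All 3 are products of the miR-17-92 cluster, and all were lower outside 67NR. miR-18a* stood at -1.74 in 67NR, -4.41 in 4T1, -4.68 in 4TO7 and the floor in 168FARN. The 12 points are 3 arrays of each of 4 lines, so the likeness is that of 4 line means.

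miR-142-3p is the blood member that was read. Its probe target covers all 23 bases printed above and lies at chr11:87570405-87570427 (mm9), in a miRNA gene of its own. On the 168FARN arrays the signal was 47.2, 37.4 and 28.7 units. It was 0.56, 3.62 and 2.84 units in 67NR, 2.81, 0.85 and 0.56 units in 4TO7, and 2.11, 2.20 and 2.05 units in 4T1. All 3 arrays of 168FARN were thus far above the 9 others, with 28 of 28 usable spots of this probe well above background against 0 of 30, 0 of 29 and 0 of 29. The dimmer probe, 1 base shorter in target, gave 22.3, 16.3 and 13.2 units in 168FARN and was well above background on 2 of these arrays. The probes differed by 2.19 ± 0.09 times there.

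The scaled level of miR-142-3p in 168FARN was -4.67 ± 0.06 (SD, n = 3), close to the lowest levels the arrays could read, and it was at the floor in the other 3 lines. 168FARN was at least 1.84-fold higher than 4T1 (limma adjusted p = 1.88e-10) and at least 1.68-fold higher than 4TO7 (1.75e-10). Against 67NR, whose arrays had the highest limits, the bound was 1.16-fold (7.39e-11). The p-values are those of differences from the floor, and miR-142-3p was tested only because 168FARN read it. The 3 lines at the floor have no scatter, which lowers the pooled scatter behind these p-values. In these comparisons 73.5%, 73.5% and 87.2% of all tested miRNAs were called, and for 4T1 against 168FARN 40.3% were lower and 33.2% higher, so a call alone does not set the miRNA apart. The calls against 4T1 and 4TO7 were lost with normexp, at adjusted p = 0.403 and 0.327, and the difference from 67NR turned to -0.41, with an added offset of 50 that exceeds these signals. All 3 calls were lost with a doubled floor or with the dimmer probe, under which the member lies at the floor in all 4 lines.

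Its hairpin partner miR-142-5p was read nowhere. In 168FARN its brighter probe gave 3.04, 3.82 and 1.04 units, and in the other lines -1.46 to 1.56 units, so 168FARN did not stand clear of them. The second probe of miR-142-5p gave 2.52, 1.60 and 0.62 units in 168FARN, above the 0.04 units of the highest other array. On that probe 168FARN thus stood clear, at signals far below those that counted as read. Counted by spot, 8 of 58 usable spots (13.8%) in 168FARN exceeded the 95th percentile of the negative control spots of their array, and none did in 67NR, 4TO7 or 4T1 (59, 59 and 56 spots). The target of miR-142-5p lies at chr11:87570371-87570389 (mm9), on the other side of the hairpin.

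**Figure D4:**
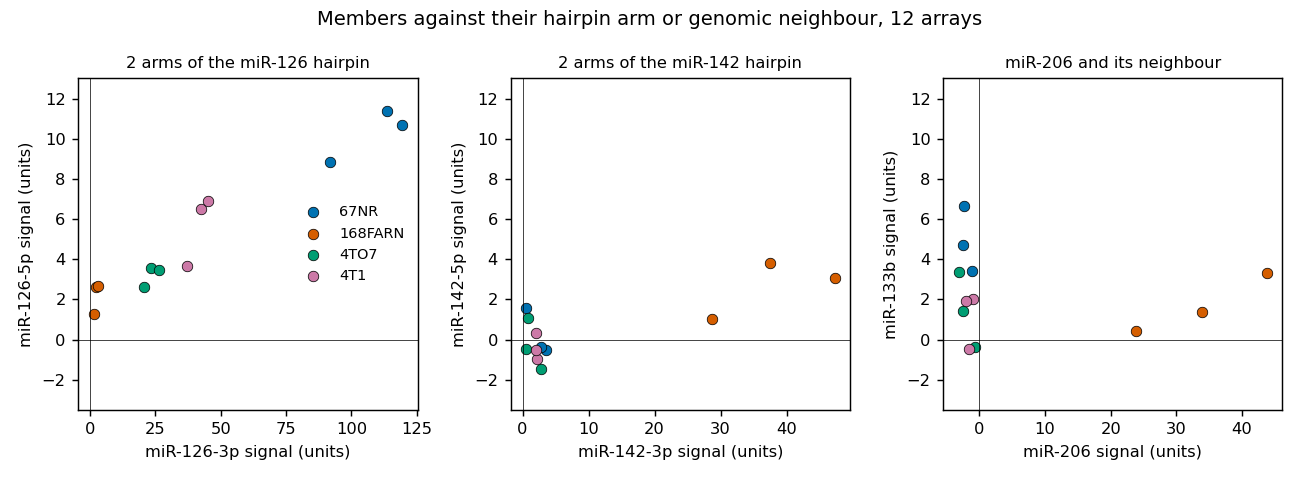
Processed signal (units) of miR-126-3p, miR-142-3p and miR-206 on the horizontal axes against that of miR-126-5p, miR-142-5p and miR-133b on the vertical axes, 1 point per array, coloured by cell line. The 67NR arrays are highest for both arms of miR-126, whereas the 168FARN arrays that are highest for miR-142-3p and miR-206 stay between 0.44 and 3.82 for the partner.

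The other white cell members gave no read signal. miR-223, of the myeloid series, had a probe target at chrX:93438225-93438244 (mm9) and gave 7.75 to 9.13 units in 67NR, 8.22 to 9.11 in 168FARN, 7.21 to 11.6 in 4TO7 and 7.10 to 9.53 in 4T1. The 4 lines overlapped. The signal was low but not at zero: 169 of 227 usable spots (74.4%) exceeded the 95th percentile of the negative control spots. Of the 323 miRNAs read nowhere, miR-223 was 1 of 3 with more than 6 units on every array, a limit chosen after its values were seen. miR-150, of mature lymphocytes, with its target at chr7:52377138-52377153 (mm9), ranged from -2.02 to 1.87 units over both probes, and 4 of its 235 spots (1.7%) passed that percentile.

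miR-451, of red cell precursors, had its target at chr11:77886688-77886709 (mm9). Its brighter probe gave 3.87 to 5.72 units in 67NR, 2.43 to 4.43 in 168FARN, 4.49 to 5.86 in 4TO7 and 1.48 to 4.97 in 4T1. The lines overlapped, except that 168FARN lay just below 4TO7. The second probe gave 0.14, 0.35 and 1.03 units in 168FARN, below the 1.39 units of the lowest other array. Of the 229 spots of miR-451, 34 (14.8%) exceeded the 95th percentile of the negative controls. miR-144, made from the same transcript, ranged from -1.96 to 2.38 units, with 4 of 230 spots (1.74%) above it.

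Among 11 other miRNAs of blood cells, 4 were tested, all of them known outside blood too. miR-155, induced in activated lymphocytes and macrophages, was not read in 67NR and reached -2.17 ± 0.03 in 4T1, -2.90 ± 0.08 in 168FARN and -4.89 ± 0.10 in 4TO7. miR-146a, a brake on innate immune signalling, was read in 168FARN (-1.82 ± 0.04) and 4T1 (-5.38 ± 0.06) and not in 67NR or 4TO7. miR-342-3p, transcribed with Evl, stood at -0.24 ± 0.09 in 67NR and -2.56 ± 0.06 in 168FARN and was unread in the other lines. miR-146b was read on all 3 arrays of 4TO7 only, at -3.80 ± 0.02, and on 1 array of 168FARN and 2 of 4T1. For 168FARN against 4TO7, 3 of the 4 were higher and 1 lower, where 39.4% of all tested miRNAs were higher and 34.1% lower. miR-146b, the lower one, was tested only because 4TO7 read it, so its direction was set in advance. miR-146a and miR-342-3p were unread in 4TO7, so their differences are from the floor. The count is therefore no result about the list. No line read all 4 on all its arrays. 168FARN read 3 of them so, 4TO7 and 4T1 2 each and 67NR 1. Of the 567 miRNAs outside the members, these lines so read 30.5%, 25.9%, 29.3% and 24.9%. None of the 4 was read in 168FARN alone, as miR-142-3p was. miR-146a came nearest, with mean signals of 272 units in 168FARN, 24.9 in 4T1, 2.32 in 4TO7 and -1.43 in 67NR. miR-155, miR-342-3p and miR-146b had their highest levels in 4T1, 67NR and 4TO7.

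miR-206 is made in skeletal muscle, and its probe targets are short, 16 and 15 bases, the former at chr1:20669142-20669157 (mm9). In 168FARN the brighter probe gave 43.8, 33.9 and 23.8 units. In 67NR it gave -2.47, -2.32 and -1.15, in 4TO7 -2.52, -0.63 and -3.17, and in 4T1 -1.52, -1.03 and -2.01 units. The 9 arrays outside 168FARN were all below 0, a value that means no signal over the subtracted background. In 168FARN 30 of 30 usable spots of this probe were well above background, and in the other lines 0 of 29, 0 of 28 and 0 of 29. The dimmer probe gave 22.4, 17.8 and 13.5 units in 168FARN, with 2 arrays well above background, and the ratio between the probes was 1.87 ± 0.10.

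The level of miR-206 in 168FARN was -4.85 ± 0.14 (SD, n = 3). It was at least 1.63-fold higher than in 4T1 (limma adjusted p = 3.74e-07) and at least 1.49-fold higher than in 4TO7 (3.78e-07). Against 67NR the bound was 1.02-fold (2.30e-07), so the scaled levels allow almost no minimum difference from that line. The p-values are again those of differences from the floor, where the lines have no scatter, and miR-206 was tested only because 168FARN read it. In these comparisons 73.5%, 73.5% and 87.2% of all tested miRNAs were called. Normexp ended the calls against 4T1 and 4TO7 (adjusted p = 0.846 and 0.679) and turned the difference from 67NR to -0.37. A doubled floor or the dimmer probe put the member at the floor everywhere, as for miR-142-3p.

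The rest of the muscle set did not follow miR-206. miR-133b, from the same Lincmd1 locus, gave 3.29, 1.35 and 0.44 units in 168FARN and 4.70, 6.64 and 3.40 in 67NR, and was read on no array. miR-1, which has the seed of miR-206 and drives muscle differentiation, was below 0 on all arrays of 168FARN, 4TO7 and 4T1 and gave 3.89, 4.42 and 3.24 units in 67NR. For both, the 67NR arrays were above the 9 others, as for 5.88% of miRNAs read nowhere, but the second probe of neither showed it. That of miR-1 averaged -0.71 ± 1.17 in 67NR, and that of miR-133b gave 2.81, 3.92 and 1.78 units there, the last below the 2.35 units of a 168FARN array. miR-133a, a partner of miR-1 in heart and skeletal muscle, gave 2.48 to 3.75 units in 67NR, -0.50 to 3.29 in 168FARN, 1.70 to 2.66 in 4TO7 and -0.11 to 2.90 in 4T1. On its second probe the 67NR arrays, at 4.08, 3.58 and 2.59 units, stood above the 1.71 units of the highest other array. Of 7 other muscle miRNAs on the array, including those carried in myosin genes (miR-208a, miR-208b and miR-499), 6 were read nowhere. The remaining 1, miR-378, lies in the metabolic gene Ppargc1b and is made in many tissues. It was read everywhere, at -0.79 ± 0.05 in 67NR, -2.20 ± 0.04 in 168FARN, -2.77 ± 0.04 in 4TO7 and -3.12 ± 0.03 in 4T1.

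miR-142-3p and miR-206 are markers of unrelated lineages, yet both were read in 168FARN and only there, and on its arrays both were highest on the first and lowest on the third. Scaling removed most of that spread for miR-142-3p. The miRNAs whose levels over the 12 arrays were most like theirs were miR-883a-5p (r = 0.9999), miR-871 (0.9997) and miR-878-5p (0.9994) for miR-142-3p, and miR-465c-5p (0.9947), miR-883a-5p (0.9925) and miR-871 (0.9892) for miR-206. Each of these 4 was at the floor in 67NR, 4TO7 and 4T1, so the correlations describe reading in 1 line. They belong to the miRNAs encoded beside Fmr1 on the X chromosome, which are best known from testis. Markers of fibroblasts and other mesenchyme moved with the pair only in part. Of 7 on the array 5 were tested. All 5 were higher in 168FARN than in 67NR and 4TO7, as were 38.9% and 39.4% of all tested miRNAs. miR-140 and miR-140* were read in all 4 lines, with differences of 0.27 and 0.69 from 67NR and 0.71 and 0.80 from 4TO7. The other 3 (miR-199a-5p, miR-199b and miR-143) were read on all arrays only in 168FARN. They were tested only because that line read them, so the direction of their calls was set in advance. Their levels there were -2.98 ± 0.06, -1.81 ± 0.11 and -4.25 ± 0.12, while miR-214 and miR-145, made with them, were read on no array. The part of other cell types in the signal of miR-142-3p and miR-206 was not tested.

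miR-122, the hepatocyte miRNA, had no signal in any line. Its 2 probes ranged from -2.72 to 0.91 units over the 12 arrays, and 0 of 232 usable spots exceeded the 95th percentile of the negative control spots. It was the lowest of the 10 members by that share. Other miRNAs of liver and gut were not all absent. miR-192 and miR-194, which are transcribed together in gut, liver and kidney, were read on all 3 arrays of 67NR, at -2.65 ± 0.07 and -4.12 ± 0.02, and on none of the 9 others. miR-148a was read on all arrays of 67NR (0.53 ± 0.05) and 4TO7 (-2.65 ± 0.04), on 2 arrays of 4T1 and on none of 168FARN. miR-215 and miR-802 were read nowhere, nor were the 4 pancreas miRNAs on the array (miR-375, miR-216a, miR-216b and miR-217). All 3 tested liver and gut miRNAs were thus lower in 4T1, 168FARN and 4TO7 than in 67NR, where 47.8%, 48.2% and 48.2% of all tested miRNAs were lower. miR-192 and miR-194 were tested only because 67NR read them, so this direction was set in advance for them. The count is therefore no result about the list.

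The design sets the metastatic line against the non-metastatic ones. Against the mean of the 3 other lines, 4T1 was lower for all 3 tested members, where 88.5% of the 226 tested miRNAs were called and 60.2% were lower. The differences were -0.55 ± 0.05 (SE) for miR-126-3p (limma adjusted p = 5.42e-07), -0.29 ± 0.02 for miR-142-3p (4.00e-07) and -0.24 ± 0.05 for miR-206 (0.00049), beside a median of -0.35 over all tested miRNAs. The mean hides opposite sides: for miR-126-3p, 4T1 lay below 67NR and above 168FARN. Without the 67NR arrays, a choice made after the data were seen, its difference became 0.52 (adjusted p = 1.48e-05), and without scaling it was 0.34 (0.0113). Scaling by all probes (-0.13, adjusted p = 0.0657) and the software's total gene signal (-0.09, 0.174) ended the call. For miR-142-3p and miR-206 the mean holds 1 read line, 168FARN, and 4T1 lay at the floor together with 67NR and 4TO7. Both were tested only because 168FARN read them, so the lower side of 4T1 was set in advance.

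**Figure D5:**
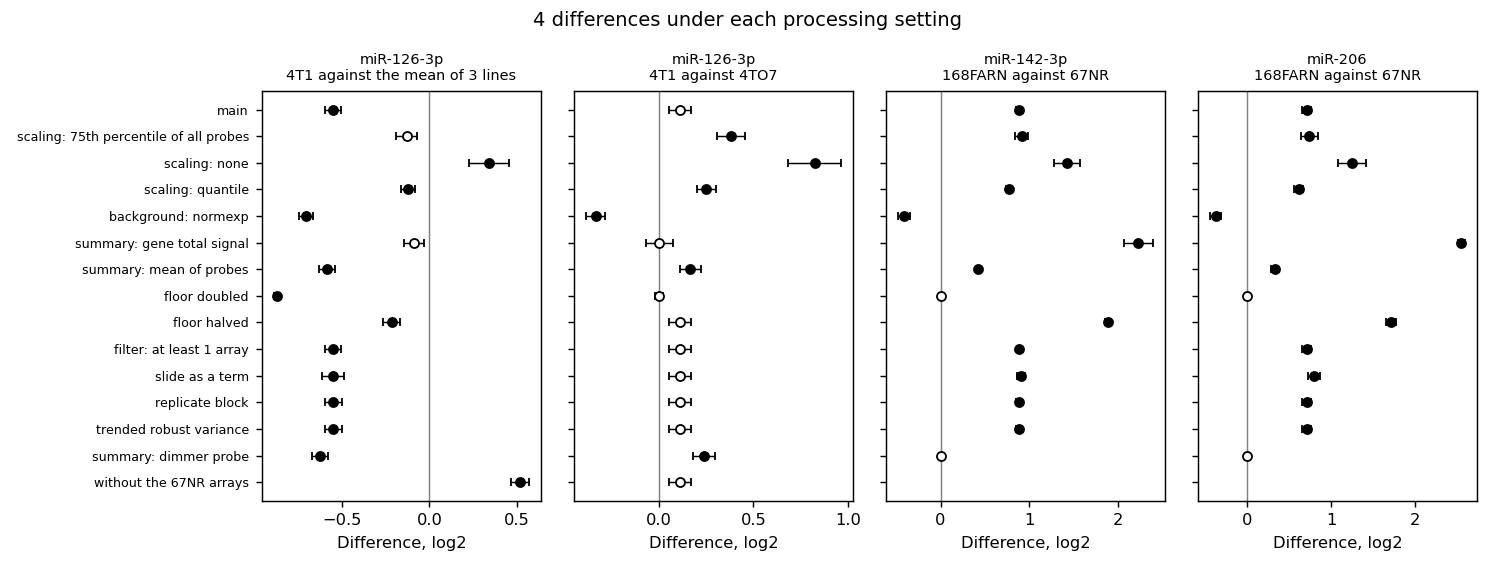
Difference (log2) ± SE for 4 comparisons of members under the main setting and each alternative, without those that leave out a single array or fit only the compared lines; filled circles passed limma's adjusted p of 0.05 and open circles did not. miR-126-3p changes side between -0.87 and 0.52 in 4T1 against the mean of 3 lines, and miR-142-3p and miR-206 fall to 0 with a doubled floor or the dimmer probe.

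The arrays were on 2 slides, the 67NR arrays and 168FARN array 1 on the first and the other 8 on the second. On the first slide alone, where 168FARN has 1 array, its difference from 67NR was 0.90 for miR-142-3p, 0.80 for miR-206 and -3.61 for miR-126-3p. On the second, its 2 arrays differed from 4TO7 by 0.87, 0.67 and -0.81. The reading of miR-142-3p and miR-206 in 168FARN thus held on both slides. 67NR has no array on the second slide, and 168FARN, the line on both, lay at the floor for miR-126-3p on each. For the level of miR-126-3p in 67NR against 4TO7 and 4T1, slide and line therefore cannot be told apart. A slide term in the fit left the differences at -2.80 and -2.69. It could not have moved them, since it rests on 168FARN, which lay at the floor on both slides.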

How the data were processed

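Per the file headers, the authors' Feature Extraction 10.2.1.3 made the deposited intensity values: processed signals after a spatially detrended background was subtracted, unscaled between arrays. Of 12493 spots per array, controls and 312 to 572 spots flagged as uneven or outlying were left out, and none was saturated. Spots were averaged per probe (1712 probes). Scaling divided an array by the 75th percentile of the 171 probes read on all 12, values below 0.0213 (log2 -5.55) were set to that floor, and log2 was taken. A miRNA was tested if read on all 3 arrays of at least 1 line. limma 3.58.1 (R 4.3.3, with the data.table package, version 1.17.8) fitted 4 lines to 12 arrays (8 residual degrees of freedom), with Benjamini-Hochberg adjustment per comparison over 226 miRNAs, called below 0.05, two-sided. A fold bound sets the read side's mean over the lowest read level of each unread array.

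All 10 members are named, list members mostly where read on all arrays of a line, and for likeness the 3 highest correlations. The vessel miRNAs miR-296-5p and miR-322 were read in all 4 lines and are counted above without their values. The nervous system markers miR-9, miR-9* and miR-128 were also read in all 4 lines and are not described. Members and lists were chosen with earlier results of these data known. Alternatives covered scaling, background, probe summary, floor, filter, slide, replicate block, variance and left-out arrays. The fit was tested on simulated data of 226 miRNAs: for 4T1 against the mean, 18, 20 and 20 of 20 miRNAs changed by 1.2, 1.5 and 2-fold were recovered. There were 5 false calls among the miRNAs left unchanged. Unlike the data, the simulation had no floor and otherwise gave all lines the same mean. Same-numbered repeats of different lines deviated together no more than others. Their median r was 0.008 (-0.777 to 0.515, 18 pairs), against 0.021 (-0.694 to 0.827, 36 pairs) for differently numbered ones.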

Additional observations from a re-analysis of the deposited data

How the results depend on the processing

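The number of arrays limits the precision, and the lowest signal read on an array was 12.6 to 16.6 units. miR-126-3p kept its direction and call in 4T1, 168FARN and 4TO7 against 67NR under all 26 alternatives each, between -3.12 and -1.38 for 4T1, -5.98 and -1.88 for 168FARN, and -3.12 and -1.50 for 4TO7. The slide term among these alternatives could not move the differences, since 168FARN lay at the floor on both slides. Members read per line held except that requiring all spots left 0 in 4TO7. Restricting the tests to the 97 miRNAs read on all 12 arrays gave fewer calls by construction: 83 for 4T1 against the mean, 88, 77 and 72 for 4T1 against 67NR, 168FARN and 4TO7, 92 and 75 for 168FARN against 67NR and 4TO7, and 86 for 4TO7 against 67NR. Reversed were miR-126-3p in 4T1 against the mean without scaling (0.34) and without the 67NR arrays (0.52), and, with normexp, miR-126-3p in 4T1 against 4TO7 (-0.33) and miR-142-3p and miR-206 in 168FARN against 67NR (-0.41 and -0.37), where the added offset of 50 exceeds the signals. For miR-126-3p in 4T1 against 4TO7, scaling by all probes (0.38) and the mean of the probes (0.17) also gave a call. Scaling moved the median of all tested miRNAs: without it, that of 4T1 against the mean went from -0.35 to 0.28 and that of 4T1 against 4TO7 from 0 to 0.34, so miR-126-3p in 4T1 against the mean stood at -0.20 relative to the median with scaling and at 0.07 without.

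Splits of higher and lower calls moved with scaling. From scaled to unscaled values they went from 64 and 136 to 111 and 66 for 4T1 against the mean, from 72 and 108 to 104 and 66 against 67NR, from 58 and 80 to 104 and 7 against 4TO7, from 88 and 109 to 107 and 72 for 168FARN against 67NR, from 89 and 77 to 127 and 38 for 168FARN against 4TO7, and from 71 and 109 to 81 and 82 for 4TO7 against 67NR. With all probes as the base, 4T1 against 168FARN went from 75 and 91 to 95 and 73.

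Leaving out 1 array at a time moved miR-126-3p in 4T1 against the mean between -0.58 and -0.53. The replicate numbers showed no pairing of the samples, with a median correlation of 0.008 for same-numbered arrays and 0.021 for differently numbered ones. With the replicate block, calls for 4T1 against the mean went from 200 to 198 and miR-126-3p stayed at -0.55, and the block changed no call of a member.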
